A study of Homo sapiens with 7 samples.

Results

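The luminal lineage transcription factors described here are 10 genes, GATA3, FOXA1, TFAP2A, TFAP2C, SPDEF, ELF3, ELF5, EHF, GRHL2 and TBX3, taken by name from the 26175 genes listed in the RNA-seq table. Their 13 gene transcription start sites (TSSs), of 10391 called in all, were those lying within the locus that the table gives for each gene, widened by 1000 nts on both sides. The study mapped transcription initiation in T47D/A1-2 cells, listed by the labels as T-47D, a human breast carcinoma line of luminal origin. In the A1-2 subline, rat glucocorticoid receptor is made in excess, and a luciferase gene driven by the mouse mammary tumor virus promoter (MMTV) sits in the genome. All 7 samples came from 1 condition, growth with 10% serum followed by at least 24 hours in 5% stripped serum. They comprise 2 Start-seq libraries, which read the 5' ends of short capped nuclear RNAs, 3 RNA-seq libraries, 1 MNase-seq library and 1 FAIRE-seq library. Only the TSS calls of Start-seq replicate 1 and the merged FPKM values of the 3 RNA-seq replicates were used here. FPKM scales the fragments of a gene to its transcript length and to the depth of the library, so it is a level per length and can be compared between genes. With 1 merged value per gene and 1 set of calls, no value below has a replicate error, the depth is unknown, and no comparison between conditions was possible.

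Luminal cells line the ducts and alveoli of the mammary gland, and a small set of sequence-specific factors sets and holds their identity. GATA3, a zinc finger factor, and FOXA1, a forkhead pioneer factor that opens chromatin, work together with the estrogen receptor. AP-2 factors, epithelial ETS factors, a grainyhead factor of cell junctions and a T-box repressor complete the set. An active promoter often initiates in both directions. The upstream antisense TSS (uaTSS) then points away from the gene, and a downstream antisense TSS (daTSS) points back towards the gene TSS from within the gene.

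The cells carried luminal markers at high levels and those of other lineages at low levels. Of 16 luminal epithelial markers, 15 had an FPKM of at least 1, with a median of 244. The highest were the keratins KRT8 at 1142, KRT19 at 936 and KRT18 at 555 and the secreted protein disulfide isomerase AGR2 at 613. The exceptions at the low end were TFF1 at 1.90, an estrogen-responsive trefoil factor, and ANKRD30A at 0.0235. Of 13 basal or myoepithelial markers, 4 reached 1, the highest being MYLK at 3.29, and KRT5 and KRT14 were listed at 0. Of 10 mesenchymal or stromal markers, 3 reached 1, the highest being COL1A1 at 8.82, and ZEB1, ZEB2 and SNAI2 were listed at 0. Among 6 immune or endothelial markers, 1 reached 1, and CD3E was listed at 0.

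All 10 members had an FPKM of at least 1, a level that 46.9% of listed genes reached, and 9 of 10 had at least 10, which 28.1% reached. Their median FPKM was 68.0, against 0.528 for all listed genes, 14.4 for genes of at least 1 and 10.1 for the listed genes with a gene TSS in their widened locus. A gene TSS so counted could lie on either strand and belong to an overlapping or neighbouring gene. On the log2 scale with a pseudocount of 0.1, the median of the members lay 6.75 above that of all listed genes. The median member exceeded 94.0% of all listed genes, and 89.1% of those with a gene TSS. In bulk RNA a level does not tell a lower amount per cell from fewer cells with the transcript.

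GATA3 (ENSG00000107485, chr10:8096667-8117164 in hg19, plus strand) had the highest level of the members, with an FPKM of 360.4. It ranked 93rd among all listed genes and stood at 35.8 times the median of genes with a gene TSS. FOXA1 (chr14:38058757-38064325, minus strand) had an FPKM of 113.0 and exceeded 97.1% of listed genes. The members of the AP-2 family, TFAP2A (chr6:10396916-10419797, minus strand) and TFAP2C (chr20:55204358-55214338, plus strand), had FPKM values of 76.3 and 31.5. TFAP2C, the AP-2 factor best known for holding luminal gene expression in breast cancer cells, was thus listed lower than TFAP2A. The locus of TFAP2A in the table is shared with the antisense RNA TFAP2A-AS1, itself at 1.15. The paper describes strand-specific RNA-seq libraries, but how strand entered the FPKM of overlapping genes is not stated.

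The 4 epithelial ETS factors covered a range from 44.1 to 233.4. SPDEF (chr6:34505579-34524110, minus strand), which drives secretory and luminal differentiation, was second of the 10 members at 233.4. ELF5 (chr11:34500342-34535347, minus strand), the factor that commits luminal progenitors to the milk-producing alveolar lineage, followed at 134.8. The alveolar genes themselves were at the floor: of CSN1S1, CSN2, CSN3, LALBA and LTF, none reached 1, 4 were listed at 0, and LTF was at 0.00541. EHF (chr11:34642588-34684834, plus strand) had 56.3 and ELF3 (chr1:201979690-201986315, plus strand) 44.1. EHF and ELF3 are both epithelium-restricted ETS factors. GRHL2 (chr8:102504668-102681952, plus strand), which activates E-cadherin and claudin genes, had 59.8. TBX3 (chr12:115108059-115121969, minus strand), a repressor needed for formation of the mammary placode, stood apart at 2.99. It exceeded 60.0% of all listed genes and 31.2% of genes with a gene TSS. Neighbours in this order, such as GRHL2 and EHF, could not be separated, since the spread between the merged replicates is not known.

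**Figure D1:**
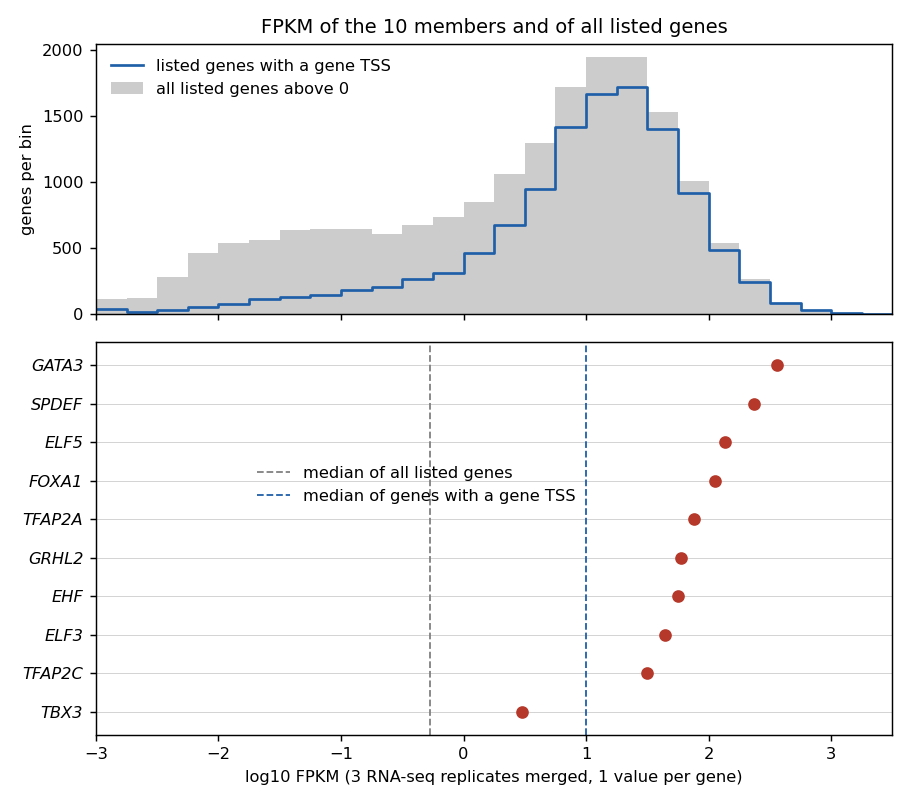
The upper panel counts listed genes by log10 FPKM (grey bars, all genes above 0, with values under the axis limit in the first bar; blue line, genes with a gene TSS), and the lower panel gives the FPKM of each member on the same log10 axis. Dashed lines mark the medians of 0.528 and 10.1, and TBX3, at 2.99, is the 1 member left of the second line.

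Within their protein families the members, TBX3 apart, were the most abundant transcripts. The 51 listed paralogs had a median FPKM of 0.248. Of these, 20 reached 1, 7 reached 10, 9 were listed at 0, and 2 were above TFAP2C, namely ELK1 at 43.7 and ERF at 33.1. GATA3 contributed 97.0% of the summed FPKM of the GATA family, in which GATA2, a factor of blood progenitors, came next at 7.41 and GATA1 was listed at 0. FOXA2 was at 0.00546 and FOXA3 was listed at 0. Among the AP-2 paralogs, TFAP2E was highest at 0.322 and TFAP2D was listed at 0, which left TFAP2A and TFAP2C with 99.7% of the family's summed level. The ETS family was broader: 11 of 23 paralogs reached 1, and the 4 members held 74.5% of the sum. ELK1, a partner of serum response factor, was at 43.7, next to ELF3 at 44.1, an order that a single merged value cannot settle, and ERG, FEV and SPIC were listed at 0. GRHL2 had 67.5% of its family's level, beside GRHL1 at 24.2 and GRHL3 at 4.64. The T-box family differed, with MGA at 4.54 and TBX6 at 3.60 above TBX3 at 2.99, and TBX2 just below at 2.54. TBX3 held 19.4% of that family's sum, and TBX20, TBX21 and the brachyury gene T were listed at 0.

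**Figure D2:**
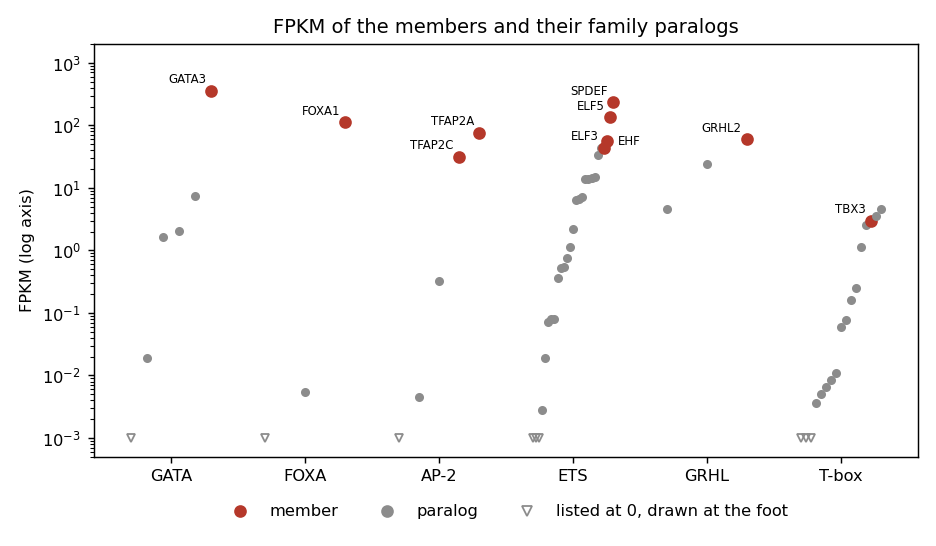
FPKM on a log axis of the members (red) and their paralogs (grey) in 6 families, with genes listed at 0 drawn as open triangles at the foot. The red points top every family except the T-box family, where TBX3 at 2.99 lies below MGA and TBX6.

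The other regulators known from luminal cells were also mostly present. Of 30 such genes, 27 reached an FPKM of 1 and 19 reached 10, with a median of 20.3. Among the highest were XBP1 at 461, CREB3L4 at 232 and TRPS1 at 140. The hormone receptors ESR1 and PGR were at 44.1 and 68.5. A gene TSS on either strand was called in the widened locus of 24 of the 30 genes, against 49.9% of all listed genes. Calls of overlapping or neighbouring genes count in both. That share includes 7888 genes listed at 0. In the log10 FPKM bin from 1.25 to 1.5, which holds the median of the 30, 1722 of 1947 listed genes had a gene TSS. Of the 24 genes, 18 had at least 1 uaTSS and 9 at least 1 daTSS. The shares of 53.1% and 28.4% over all gene TSSs count single gene TSSs. Some of the 24 genes had 2 or 3 gene TSSs, so these counts and shares are not on the same basis. PGR and ZNF217 had no called gene TSS at FPKM values of 68.5 and 60.9.

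Every member had at least 1 called gene TSS, on its own strand, and 49.9% of all listed genes had a call in their widened locus. That share counts calls on either strand and of overlapping or neighbouring genes, so 13064 listed genes were credited from 10391 calls. That share includes 7888 genes listed at 0. In the log10 FPKM bin from 1.75 to 2, which holds the median of the members, 917 of 1004 listed genes had a call counted in this way. TFAP2A had 3 and EHF had 2, and 27% of the listed genes with any such call had more than 1. The TSSs of TFAP2A and EHF are numbered in the order of transcription. Of the 13 gene TSSs, 8 lay within 10 nts of an annotated transcript start of their gene, a distance that 50.3% of all gene TSSs kept to a start of any gene. The calls for SPDEF at 34524106, TFAP2C at 55204362, TFAP2A TSS 1 at 10419892 and EHF TSS 1 at 34642640 fell exactly on one. The FOXA1 call at 38064599 was the farthest, 145 nts upstream of the nearest FOXA1 start. TFAP2A TSS 2, at 10415498, was 59 nts upstream and EHF TSS 2, at 34654049, was 38 nts downstream of the nearest start. The GATA3 call at 8096639 lay 12 nts upstream of the start of the main coding transcript. The GRHL2 call at 102505003 lay in a coding exon of longer transcripts, 336 nts downstream of the first annotated start and 17 nts downstream of the nearest.

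The sequences around the calls show how differently these promoters begin. The windows below run from 50 nts upstream to 10 nts downstream on the strand of the gene, read from GRCh37, whose chromosomes are those of hg19. Capitals mark the bases at -1 and +1 around the called TSS and, where present, TATAA or TATAT starting between -35 and -24. Windows are shown for 5 of the 13 gene TSSs.
GATA3, chr10:8096589-8096648, plus strand: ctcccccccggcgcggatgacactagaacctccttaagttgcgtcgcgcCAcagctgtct
FOXA1, chr14:38064590-38064649, minus strand: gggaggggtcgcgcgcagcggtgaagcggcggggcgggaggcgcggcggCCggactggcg
TFAP2A TSS 1, chr6:10419883-10419942, minus strand: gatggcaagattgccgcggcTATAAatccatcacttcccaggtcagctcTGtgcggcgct
TFAP2A TSS 2, chr6:10415489-10415548, minus strand: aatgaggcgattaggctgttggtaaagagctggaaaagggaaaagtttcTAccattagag
SPDEF, chr6:34524097-34524156, minus strand: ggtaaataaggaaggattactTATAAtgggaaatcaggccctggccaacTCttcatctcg

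The core of the initiator element, a purine at +1 preceded by a pyrimidine, was present at 8 of 13 member gene TSSs and at 66.1% of all gene TSSs. SPDEF, FOXA1, EHF TSS 2, ELF3 and TBX3 lacked it. A TATA-like sequence, bound by the TATA-binding protein in the classical core promoter, was found at 3 of 13, in SPDEF from -29, in ELF5 from -32 and in TFAP2A TSS 1 from -30. Over all gene TSSs this share was 3%. Inside CpG islands, defined below, it was 1 of 6 for members and 2.65% for all gene TSSs. Outside islands it was 2 of 7 and 4.67%. GC content over 100 nts centered on the TSS ranged from 37% at EHF TSS 1 to 79% at FOXA1, with a median of 59.0% against 68.0% for all gene TSSs. Of the 13, 11 were below the median of all gene TSSs. At EHF TSS 1 it was lower than at all but 0.154% of gene TSSs.

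CpG islands, which cover most housekeeping promoters and many developmental ones, were found at fewer member promoters than at gene TSSs in general. An island of over 200 nts, with at least 50% GC and more than 0.6 times the CpG dinucleotides that its base composition predicts, covered 6 of 13 member gene TSSs, against 82.7% of all gene TSSs. The exact Clopper-Pearson 95% interval of the member share was 19.2% to 74.9%, which covers counting only. It takes the 13 as independent draws, which they are not, and is no test against 82.7%. The island promoters were those of GATA3, FOXA1, TFAP2A TSS 1, TFAP2A TSS 3, TFAP2C and TBX3. Those of GATA3 and TFAP2C were the longest, at 6955 and 6510 nts, and TFAP2A TSS 1 had the shortest at 924 nts. Outside islands lay all 5 gene TSSs of the ETS members, together with GRHL2 and TFAP2A TSS 2. The ratio of observed CpGs to that prediction over 500 nts was 0.140 at EHF TSS 2, 0.177 at EHF TSS 1, 0.255 at SPDEF, 0.360 at ELF3 and 0.456 at ELF5. The ETS members thus occupied the low end, while GRHL2 was at 0.636 and TFAP2A TSS 2 at 0.635, and both would count as islands in a fixed window of 500 nts.

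**Figure D3:**
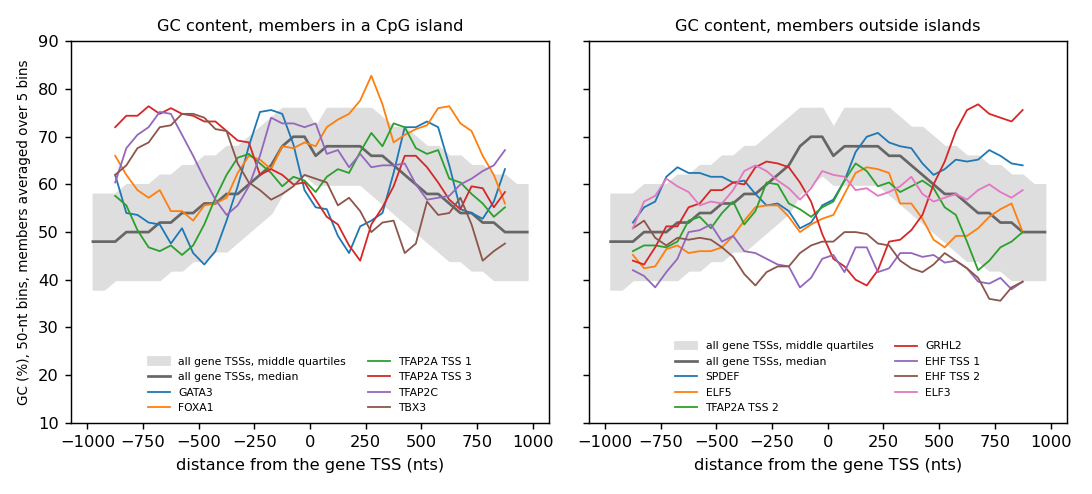
GC content in 50-nt bins from 1000 nts upstream to 1000 nts downstream of the gene TSS, for members in islands (left) and outside (right), each averaged over 5 bins, over the median and middle quartiles of all gene TSSs (grey). Both EHF profiles run below the grey band near the TSS, where EHF TSS 1 had 37% GC over 100 nts.

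A uaTSS was called at 11 of 13 member gene TSSs and at 9 of 10 members, and 53.1% of all gene TSSs had one. The paper reports that, among genes without daTSSs, those with a uaTSS had higher RNA levels. Most members were high in level, and the share of 53.1% is not matched for level. The exact interval of the member share was 54.6% to 98.1%, which takes the 13 as independent draws. They were chosen by name, and the TSSs of TFAP2A share a locus, as do those of EHF. No interval here is thus a test against the share of all gene TSSs. A daTSS was called at 6 of 13 and at 5 of 10 members, beside 28.4% of all gene TSSs, with an interval of 19.2% to 74.9%. Both were called at 5 of 13, against 17.5%. The members with both were GATA3, ELF5, GRHL2, TFAP2A at TSS 2 and EHF at TSS 2. SPDEF, second in level, had neither, and EHF TSS 1 had a daTSS without a uaTSS. The remaining 6 gene TSSs, those of FOXA1, ELF3, TFAP2C, TBX3 and TFAP2A at TSS 1 and TSS 3, had a uaTSS without a daTSS.

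Most antisense calls of the members lay beyond the median distance of their class. Their uaTSSs were 93 to 912 nts upstream, with a median of 325 nts, whereas the median over all uaTSSs was 200 nts. Of the 11, 8 were beyond that median. TFAP2A TSS 1 had the nearest at 93 nts, followed by TFAP2A TSS 2 at 151, TFAP2C at 186 and ELF3 at 228 nts. GATA3 and ELF5 were close to each other at 311 and 325 nts, and TFAP2A TSS 3, TBX3 and GRHL2 followed at 419, 508 and 514 nts. The uaTSSs of FOXA1 at 834 nts and of EHF TSS 2 at 912 nts were farther than 97.8% and 98.9% of all uaTSSs. The daTSSs were at 214 nts for EHF TSS 2, 587 for GATA3, 622 for ELF5, 982 for both EHF TSS 1 and TFAP2A TSS 2, and 1095 nts for GRHL2. Their median of 802 nts compares with 507 nts over all daTSSs, and 5 of 6 were beyond it. All 6 lay past the end of the first exon of the nearest transcript, by 64 nts at EHF TSS 2 and by 1021 nts at GRHL2. Over all daTSSs with an annotated start near their gene TSS, 76.6% lay past the first exon. Of the 6, 5 were intronic, beside 60.1% of all, and that of EHF TSS 1 fell in an untranslated exon of another EHF transcript.

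**Figure D4:**
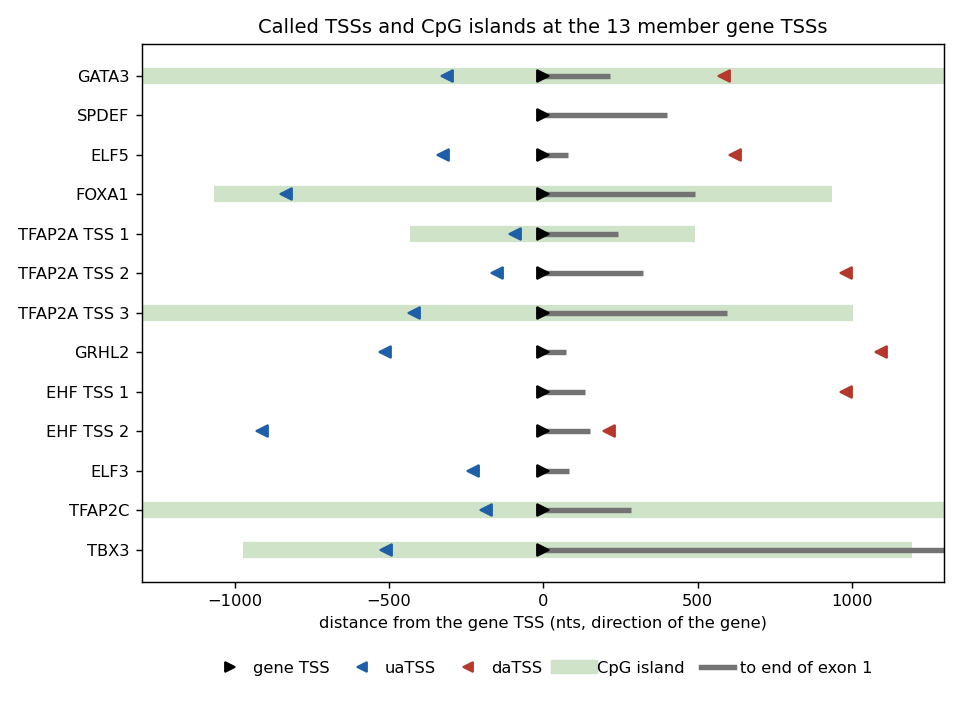
Positions of the gene TSS (black), uaTSS (blue) and daTSS (red) at the 13 member gene TSSs, in nts along the direction of the gene, with CpG islands in green and the stretch to the end of exon 1 in grey. Of the 6 daTSSs, 1 (GATA3) belongs to a gene TSS in an island, and islands and the exon of TBX3 run past the edges of the plot.

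The antisense calls were also counted separately for promoters inside and outside islands, a split chosen after the values had been seen. Inside islands, 6 of 6 member gene TSSs had a uaTSS and 1 of 6 a daTSS, where all island gene TSSs had 56.5% and 29.1%. Outside islands, 5 of 7 had a uaTSS and 5 of 7 a daTSS, where all gene TSSs outside islands had 37.1% and 25.4%. All 6 uaTSSs of island members started within the island, as did 80.2% of the uaTSSs of all island gene TSSs. These are counts over few positions, and the TSSs of TFAP2A share a locus, as do those of EHF.

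The antisense starts of 2 genes with daTSSs are shown with their windows to compare them with the sense starts given above. Capitals again mark -1 and +1 and any TATA-like sequence, on the antisense strand.
GATA3 uaTSS, chr10:8096319-8096378, minus strand: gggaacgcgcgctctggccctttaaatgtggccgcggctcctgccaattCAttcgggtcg
GATA3 daTSS, chr10:8097217-8097276, minus strand: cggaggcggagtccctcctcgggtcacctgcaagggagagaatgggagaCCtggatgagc
TFAP2A TSS 2 uaTSS, chr6:10415599-10415658, plus strand: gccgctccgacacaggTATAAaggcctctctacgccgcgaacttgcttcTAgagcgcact
TFAP2A TSS 2 daTSS, chr6:10414466-10414525, plus strand: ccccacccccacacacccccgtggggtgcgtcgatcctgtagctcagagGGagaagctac
At GATA3 the sense and upstream antisense starts both had CA around the start, and the daTSS had CC. At TFAP2A TSS 2 the uaTSS had TA and the daTSS GG. Over the 17 antisense TSSs of the members, 12 had a pyrimidine followed by a purine, beside 65.5% of all antisense TSSs. A TATA-like sequence stood before 1 of the 17, the TFAP2A TSS 2 uaTSS, from -34, and before 0.85% of all antisense TSSs. The gene TSS it is paired with, 151 nts away, had none.

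Several antisense calls lay near annotated genes on the opposite strand. An opposite-strand start within 1000 nts upstream was annotated for 3 of 13 member gene TSSs, FOXA1, ELF3 and GRHL2, and for 33.3% of all gene TSSs. At FOXA1, the coding gene TTC6 starts 235 nts upstream, and the uaTSS lay 599 nts inside it. ELF3-AS1 starts 161 nts upstream of ELF3, and the uaTSS lay 67 nts inside it. The GRHL2 uaTSS at 102504489 lay 37 nts past the start of ENSG00000289048. GATA3-AS1, with an FPKM of 98.4, starts 1192 nts upstream of GATA3, and the GATA3 uaTSS lay between them, 881 nts short of that start. At TFAP2A, the uaTSSs of TSS 2 and TSS 3 and the daTSS of TSS 2, at 10414516, all lay within the annotated span of TFAP2A-AS1. The nearest of its annotated starts was 838 nts behind the uaTSS of TSS 2 and 295 nts ahead of the daTSS. The TBX3 uaTSS lay inside TBX3-AS1, 1733 nts past its nearest annotated start. In all, 6 of the 11 member uaTSSs, those of FOXA1, ELF3, GRHL2, TBX3 and TFAP2A at TSS 2 and TSS 3, lay inside an annotated gene on their own strand, as did 30.5% of all uaTSSs. Whether these calls and the annotated RNAs are the same transcripts was not tested.

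The distance from each member to the nearest called gene TSS of another locus was also measured. The nearest gene TSS of another locus was 27874 nts away for ELF3, 75178 for ELF5, 130260 for SPDEF, 160660 for TFAP2C, 266499 for GATA3, 287312 for GRHL2, 397357 for FOXA1 and 717841 nts for TBX3. TFAP2A had its nearest at 274938 to 282431 nts from its 3 gene TSSs, and EHF TSS 2 at 118746 nts. For EHF TSS 1 it was the ELF5 gene TSS, 107337 nts away on the same chromosome. For 12 of 13 the distance exceeded 35286 nts, the median distance to the nearest other call over all gene TSSs. That median counts calls of the same gene, so the measures are unlike. With such calls counted for the members too, their median was 75178 nts and their lower quartile 11409 nts. Over all gene TSSs these were 35286 and 7278 nts.

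Letters matching the recognition sequences of the members' own families were searched on both strands from 250 nts upstream to 50 nts downstream of each gene TSS. A match is a description of the letters and not a binding site. AGATAA or TGATAA, read by GATA factors, was present at 4 of 13 member gene TSSs, TFAP2A TSS 2, EHF TSS 1, EHF TSS 2 and TFAP2C, and at 6.22% of all. The forkhead letters TGTTTAC or TGTTTGC were present at 3 of 13, ELF5, FOXA1 and EHF TSS 2, and at 4.41% of all. Both kinds are rich in A and T, and member windows were poorer in GC, so base composition moves with these counts and its part was not tested. Among gene TSSs outside islands the shares were 13.9% and 8.18%. GCCNNNGGC, read by AP-2, occurred at 4 of 13, GATA3, FOXA1, TFAP2A TSS 2 and TBX3, and at 33.3% of all. CCGGAAG or AGGAAGT, read by ETS factors, occurred at 1 of 13, SPDEF, and at 25% of all. The grainyhead letters AACCGGTT, AACCTGTT or AACCAGTT occurred at 1 of 13, EHF TSS 1, and at 1.14% of all. The T-box letters AGGTGTGA or AGGTGTTA occurred at 0 of 13 and at 0.876% of all. GGGCGG, the GC box of SP1-type factors, occurred at 4 of 13, GATA3, FOXA1, TFAP2C and TBX3, and at 72.4% of all. These 4 were among the 6 in islands, and none of the 7 gene TSSs outside islands had a GC box, where 41.0% of all gene TSSs outside islands did.

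**Figure D5:**
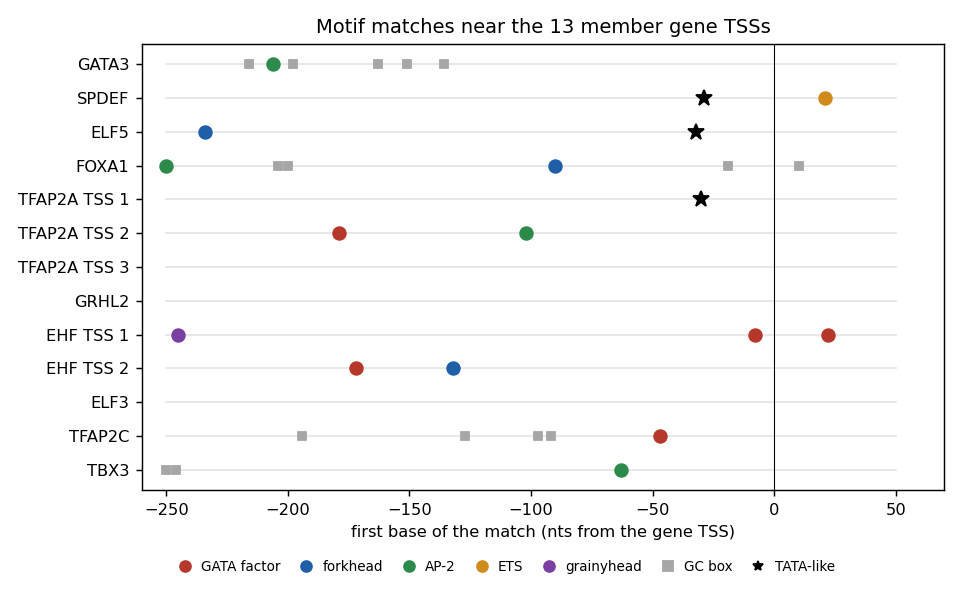
First base of each motif match from 250 nts upstream to 50 nts downstream of the 13 member gene TSSs, with GC boxes as squares and TATA-like sequences as stars. GC boxes appear in 4 rows, GATA matches in 4 and forkhead matches in 3, and TFAP2A TSS 3, GRHL2 and ELF3 have no match.

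The promoters below, from 200 nts upstream to 10 nts downstream, carry matches for factors that are themselves members. Capitals mark the matches, read on either strand.
FOXA1, chr14:38064590-38064799, minus strand, forkhead from -90: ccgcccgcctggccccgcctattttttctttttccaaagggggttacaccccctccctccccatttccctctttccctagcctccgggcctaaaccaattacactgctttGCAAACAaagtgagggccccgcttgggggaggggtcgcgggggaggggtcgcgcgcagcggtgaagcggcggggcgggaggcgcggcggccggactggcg
TFAP2A TSS 2, chr6:10415489-10415698, minus strand, GATA from -179 and AP-2 from -102: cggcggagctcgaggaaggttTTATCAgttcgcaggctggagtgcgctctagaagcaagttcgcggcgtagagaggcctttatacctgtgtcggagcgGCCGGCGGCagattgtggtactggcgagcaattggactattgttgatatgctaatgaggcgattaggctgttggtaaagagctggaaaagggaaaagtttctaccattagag
The FOXA1 window held a forkhead match and the TFAP2A TSS 2 window an AP-2 match, each to the letters of its own family. SPDEF had an ETS match from +21, past the end of such a window. No other member gene TSS had a match to its own family in the searched stretch. Forkhead, AP-2 and ETS letters occurred at 4.41%, 33.3% and 25% of all gene TSSs. TFAP2C and EHF TSS 1 had GATA matches closer to the start, from -47 and from -8, and at EHF TSS 1 a second GATA match began at +22.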

How the data were processed

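TSS calls came from Start-seq replicate 1 and FPKM values from 3 RNA-seq replicates. Per the paper's methods, Start-seq reads were trimmed and aligned to hg19, RNA-seq reads were aligned, cleared of duplicates and merged over replicates, and the submitters' processing notes name cutadapt 1.2.1, Bowtie 0.12.8, TopHat2 2.0.4, Picard 1.118 and Cufflinks 2.2.1. The deposited FPKM is 1 value per gene, normalized by the authors to length and mapped fragments. The deposited calls are single positions with a score of 0 throughout, so read counts and depth are unknown, and 0 columns of per-sample values were left unused. Antisense TSSs were joined to gene TSSs by the identifier the deposited lists share. Gene models were GENCODE lifted to GRCh37, later than the annotation used for calling. Sequences, islands and motifs were read from GRCh37 with Python 3.11.15, numpy 2.4.6, pandas 2.3.3, scipy 1.17.1 and numba 0.67.0, and plotted with matplotlib 3.10.9. The island and motif searches were tested on simulated data. Named genes are all members, the highest and lowest paralogs of each family, the nearest opposite-strand genes, and the 4 highest and the zeros of each marker list. ESR1, PGR, ZNF217, ERF, GRHL3, TBX2, TBX6, TFF1 and ANKRD30A were named after their values were seen. Members and lists were chosen with earlier results of these data known. Some genes and sequences are not reported here. No test was run, since there is 1 condition and no replicate value.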

Additional observations from a re-analysis of the deposited data

How the results depend on the processing

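Of 24 alternatives, 15 left their result within 1.5 times its count and 9 moved a value. The median percentile of member FPKM, 94.0 among all listed genes, was 91.5 among genes above 0, 89.1 among genes with a gene TSS and 87.3 among genes of at least 1. The median log2 difference of 6.75 became 5.49 with a pseudocount of 1, 6.97 with 0.01 and 2.22 against genes of at least 1. Median GC content, 59.0% over 100 nts, was 57.8% over 500 nts and 59.7% over 1000 nts, where all gene TSSs had 66.6% and 63.0%. The median distance to an annotated start, 9 nts, was 17 nts with coding transcripts alone. Without widening the loci, 7 members and 9 gene TSSs remained, since the calls of GATA3, FOXA1, TBX3 and TFAP2A TSS 1 lay 28, 274, 2 and 95 nts outside. Islands covered 6 member gene TSSs by stricter limits and 8 by a fixed 500-nt window, against 71.1% and 87.0% of all. No paired analysis was possible because no result comes from a test, and leaving out a replicate was not run because the values are merged. With a score of 0 for every call, a missing uaTSS or daTSS cannot be told from one below the calling threshold, nor a missing daTSS from one the authors removed for lying near another sense or annotated start.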
